A study of Mus musculus with 15 samples.

Results

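Neutrophils sorted from mouse bone marrow, the mature cells of the granulocyte lineage, were compared with CD115plusGMP, granulocyte-monocyte progenitors that carry CD115, the receptor for colony-stimulating factor 1. Each group had 3 RNA libraries. Both groups were sorted by flow cytometry from the same kind of source, untreated fresh marrow of healthy mice. The sources used here do not give genotype, strain, age or sorting gates, nor whether libraries came from separate or pooled animals. The p-values therefore reflect the spread among the deposited libraries alone, and that spread may be technical. The study holds 15 libraries of 5 sorted populations. The deposited table holds 14801 rows, 14298 of them with a gene symbol, and the 5478 genes whose log2 CPM exceeded 3 in 3 or more libraries of both groups together are compared here. CPM is a gene's read count scaled to library size, and the authors deposited it on the log2 scale.

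Granulocyte-monocyte progenitors divide, and they make the proteases of the azurophilic granules early in development. Specific and gelatinase granules are filled later, as division stops. Mature neutrophils then carry receptors for chemoattractants, an NADPH oxidase that makes superoxide, and an actin machinery for crawling and engulfing. Fewer cells of a type and less RNA per cell cannot be told apart in RNA from sorted bulk samples.

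Reads per gene could be recovered from the deposited values. The Neutrophil libraries held 887982, 1283806 and 1401958 reads in replicates 1 to 3, and the CD115plusGMP libraries 1284327, 931720 and 810794. Rows without a symbol took 63.5% to 69.5% of the Neutrophil reads and 60.3% to 61.7% of the CD115plusGMP reads. The median gene compared had 77 reads over the 6 libraries, and 708 genes had fewer than 30. ND6, the mitochondrial protein gene that lies on the strand opposite to the other ones, held 69.1% to 90.9% of the reads of the 13 mitochondrial protein genes in Neutrophil and 89.7% to 93.3% in CD115plusGMP. The reads of a gene may therefore come mainly from the strand opposite to it, and each value below is a value of the gene's locus. Of 5409 genes matched to an annotation, 2259 (41.8%) share at least 50 exon bases with a gene on the opposite strand, and such partners are named with most of the genes described. Neutrophil replicate 3 stood apart: chi-square per degree of freedom between Neutrophil libraries was 4.53 for replicates 1 and 2 and 7.9 and 13.3 against replicate 3, while the CD115plusGMP pairs had 1.68 to 2.22.

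The defining genes were checked in each group. Of 11 neutrophil markers, 10 had more reads in each Neutrophil library than in any CD115plusGMP library. The last of these in the list, Csf3r, the receptor for granulocyte colony-stimulating factor, had 83, 73 and 529 reads in Neutrophil and 9, 0 and 0 in CD115plusGMP. The exception was Ly6g, the gene of the antigen used to sort mouse neutrophils, with 0, 4 and 16 reads in Neutrophil and 0, 0 and 1 in CD115plusGMP. Of the progenitor genes, Kit, a growth factor receptor of early progenitors, had 0, 0 and 1 reads in Neutrophil and 7, 1 and 2 in CD115plusGMP, below the filter. Csf1r, which encodes CD115 itself, had 13, 4 and 49 reads in Neutrophil and 15, 8 and 4 in CD115plusGMP. Its log2 difference was 1.35 ± 0.76 (SE, n = 3 each; limma adjusted p = 0.15), so the gene named in the sort did not pass the test in either direction, and the libraries overlapped. Without Neutrophil replicate 2 it passed as higher in Neutrophil (2.04, adjusted p = 0.022). Csf1r has the opposite-strand partner Hmgxb3, whose row had 31, 17 and 47 reads in Neutrophil and 24, 11 and 12 in CD115plusGMP. The Hmgxb3 row was called higher in Neutrophil (1.53 ± 0.48, limma adjusted p = 0.017), but not under every scaling. Cd34, a progenitor surface gene, had 3, 0 and 11 reads in Neutrophil and 23, 4 and 3 in CD115plusGMP, and did not pass (−0.83 ± 1.05, adjusted p = 0.52). Fcgr3, an Fc receptor gene among the progenitor markers, had 40, 39 and 126 reads in Neutrophil and 22, 1 and 12 in CD115plusGMP. It was called higher in Neutrophil (3.54, and 4.15 and 2.46 without CD115plusGMP replicates 1 and 2). The marker Ly6c2 had 6, 0 and 21 reads in Neutrophil and 25, 7 and 7 in CD115plusGMP and was not called. The markers Mpo, Elane, Prtn3, Ctsg and Irf8 were called lower, as described below.

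A gene was called when limma's adjusted p was under 0.05 and its log2 difference, Neutrophil minus CD115plusGMP, was at least 1 in size. In all, 2070 of the 5478 genes (37.8%) were called higher in Neutrophil and 931 (17%) lower, that is 14.5% and 6.51% of all 14298 genes with a symbol. The split depended on the scaling, and the median difference over the genes compared was 0.86 rather than near 0. Median centring of the libraries moved it by −1.01 and gave 1252 genes higher against 1460 lower. Only 1183 genes (21.6%; 8.27% of the table) were called higher under the deposited and all 4 other scalings, against 931 genes (17%; 6.51%) called lower under all of them. Each of the other scalings moved the median down, by −0.57 to −1.01, so a call of lower could hardly be lost this way, and its holding supports nothing. Calls of higher that held under all 5 scalings are called stable here. In 3360 genes (61.3%) every library of one group lay above every library of the other. The filter kept 1109 genes only through their higher group, and such genes had to differ. The adjusted p given for such a gene is no support for its change. That holds for Mmp9, Retnlg, Foxd4, Ngp, Ltf, Camp, Cxcr2, Elane, Irf8, Rrm1 and Top2a, among others. Counts over a list below are out of its genes in the table, not of those that passed the filter. In the plot of difference against level, the diagonal lines of points are genes with 0 or few reads in the lower group.

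**Figure D1:**
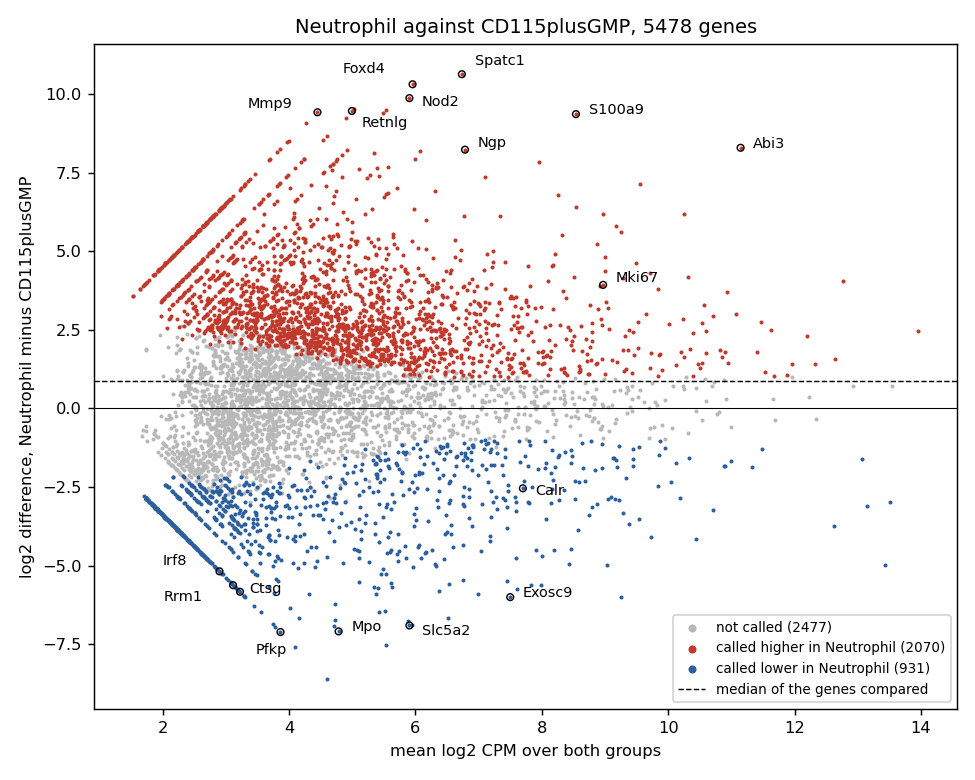
Log2 difference (Neutrophil minus CD115plusGMP) against mean log2 CPM over both groups for the 5478 genes compared, 1 point per gene, with called genes in colour and some named genes circled. The dashed line is the median of 0.86; neutrophil genes such as S100a9 and Ngp lie far above it, Mpo and the locus of Exosc9 far below.

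Genes of the specific granules, which store antimicrobial proteins, were higher in Neutrophil. Of the 16 in the table, 13 were called higher, 12 of them stably, and none lower; 9 of these 16 passed the filter only through Neutrophil. Over all 16 the median log2 difference was 6.34, against 0.56 over all genes of the table. Ngp, the neutrophilic granule protein, had 534, 442 and 1948 reads in Neutrophil and 4, 3 and 3 in CD115plusGMP (log2 difference 8.23 ± 0.39, adjusted p = 2.3e-08). Ltf, the iron-binding lactoferrin, had 279, 215 and 1698 reads in Neutrophil and 3, 1 and 2 in CD115plusGMP (8.20 ± 0.54, adjusted p = 2.9e-07; 7.58 without Neutrophil replicate 3). Every Neutrophil library was far above every CD115plusGMP library for both genes, and replicate 3 was the highest. Both genes passed the filter only through Neutrophil, so the lack of overlap was fixed by the filter.

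Camp, the precursor of the antimicrobial peptide cathelicidin, had 142, 73 and 645 reads in Neutrophil and 4, 0 and 0 in CD115plusGMP (8.07 ± 0.82, adjusted p = 8.5e-06; 8.95 without CD115plusGMP replicate 1). Mmp8, neutrophil collagenase, had 303, 302 and 706 reads in Neutrophil and 6, 1 and 1 in CD115plusGMP (7.93 ± 0.49, adjusted p = 2e-07). The iron-carrier binding protein gene Lcn2 had 81, 75 and 518 reads in Neutrophil and 1, 1 and 0 in CD115plusGMP. That is a ratio of 483 after scaling to the library sizes implied by the deposited values (95% counting interval 133 to 3990, and 219 without Neutrophil replicate 3). All such ratios and bounds hold for that scaling only. With recovered read totals they would be smaller for genes higher in Neutrophil and larger for genes lower in it. Lyz2, the lysozyme of granulocytes and macrophages, was already abundant in the progenitors, with 268, 220 and 1025 reads in Neutrophil and 201, 70 and 60 in CD115plusGMP (2.62 ± 0.40, adjusted p = 0.00018).

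The proximal promoters of Ngp and Ltf are shown because these members rose together and C/EBP factors are known to drive specific granule genes. Each runs from 250 bases before the start of transcription to 50 after it, on the + strand, from RefSeq (GRCm38.p6), at chr9:110419558-110419857 for Ngp and chr9:111019042-111019341 for Ltf. Capitals mark matches to the C/EBP motif TTGCNNAA on either strand.
Ngp: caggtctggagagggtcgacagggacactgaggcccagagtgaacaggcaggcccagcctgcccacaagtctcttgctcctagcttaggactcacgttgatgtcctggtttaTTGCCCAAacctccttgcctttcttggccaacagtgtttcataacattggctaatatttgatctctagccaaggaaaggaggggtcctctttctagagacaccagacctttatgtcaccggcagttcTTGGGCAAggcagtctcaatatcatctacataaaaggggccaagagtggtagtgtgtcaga
Ltf: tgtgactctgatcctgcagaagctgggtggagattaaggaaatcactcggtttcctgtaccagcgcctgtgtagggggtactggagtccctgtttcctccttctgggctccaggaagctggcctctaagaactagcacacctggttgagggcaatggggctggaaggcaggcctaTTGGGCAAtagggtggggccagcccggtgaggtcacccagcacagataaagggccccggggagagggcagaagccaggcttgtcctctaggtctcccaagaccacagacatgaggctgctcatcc
Ngp held 2 matches, starting 138 and 11 bases before the start of transcription, and Ltf 1, starting 75 bases before it. Camp held no match in its window. The motif occurred in 10.8% of all 32851 promoters of the RefSeq table, in 10.4% of 1591 promoters of genes called higher, in 7.61% of 696 promoters of genes called lower and in 8.33% of 1981 promoters of genes not called.

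Gelatinase granules are released as neutrophils leave the blood. Of 8 such genes in the table, 4 were called higher, all stably, and none lower. Of these 8, 3 passed the filter only through Neutrophil. Mmp9, gelatinase B, had 151, 129 and 627 reads in Neutrophil and 0 in each CD115plusGMP library, which makes it at least 433-fold higher (floor of 3 reads over the group; at least 262-fold without Neutrophil replicate 3 and at least 251-fold without CD115plusGMP replicate 1; adjusted p = 4.6e-07). Retnlg, a resistin-like protein of mature neutrophils, had 240, 196 and 842 reads in Neutrophil and 1, 0 and 0 in CD115plusGMP. Its ratio was 1830 (counting interval 328 to 72400; at least 353 without CD115plusGMP replicate 1), with an adjusted p of 1.9e-07. Both loci were almost silent in the progenitor libraries and passed the filter only through Neutrophil.

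Azurophilic granule genes, in contrast, were lower in Neutrophil in 6 of 10 and higher in 2. Of these 10, 5 passed the filter only through CD115plusGMP. Mpo, myeloperoxidase, had 3, 0 and 0 reads in Neutrophil and 371, 129 and 149 in CD115plusGMP, a ratio of 151 (51.4 to 734; 77 without Neutrophil replicate 3; adjusted p = 3.1e-05). The predicted gene Gm11505 lies opposite Mpo. Among the serine proteases, Prtn3, proteinase 3, had 0 reads in each Neutrophil library and 83, 28 and 30 in CD115plusGMP, and Ctsg, cathepsin G, had 0 in Neutrophil against 83, 19 and 46 in CD115plusGMP. They were at least 32.8-fold and at least 34.4-fold lower (16.7-fold and 17.6-fold without Neutrophil replicate 3). Elane, neutrophil elastase, had 0, 1 and 0 reads in Neutrophil and 65, 19 and 17 in CD115plusGMP. The elastase ratio was 70.5 (12.4 to 2810; 43.4 without CD115plusGMP replicate 1, 35.9 without Neutrophil replicate 3, and at least 17.5 without Neutrophil replicate 2, which held the only read; adjusted p = 0.00075). Ctsc, the cathepsin that activates these proteases, had 0 reads in Neutrophil and 36, 14 and 15 in CD115plusGMP (at least 15.1-fold lower; at least 7.71-fold without Neutrophil replicate 3). Ms4a3, a membrane protein gene of progenitors, had 0, 0 and 3 reads in Neutrophil and 16, 8 and 6 in CD115plusGMP, a ratio of 6.98 (2.17 to 35.7; at least 3.56 without Neutrophil replicate 3; adjusted p = 0.011).

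The exceptions were Srgn and Prss57. Srgn, the proteoglycan that packs proteins into granules of several kinds, had 42, 37 and 138 reads in Neutrophil and 15, 12 and 9 in CD115plusGMP (2.87 ± 0.45, adjusted p = 0.0002). Prss57, neutrophil serine protease 4, had 148, 224 and 209 reads in Neutrophil and 68, 41 and 39 in CD115plusGMP (2.55 ± 0.34, adjusted p = 6e-05). Prss57 shares 1157 exon bases with Fstl3 on the other strand, and the Fstl3 row was lower in Neutrophil, as described further on with the other opposite-strand pairs.

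**Figure D2:**
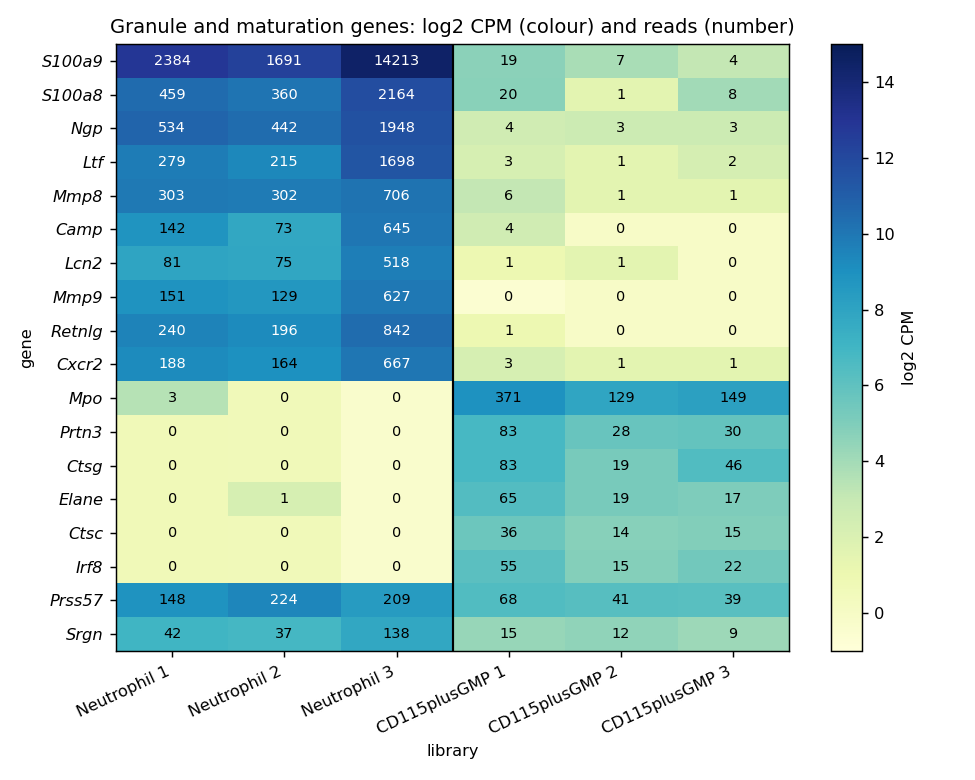
Log2 CPM (colour) and recovered reads (numbers) of 18 granule and maturation genes in the 3 Neutrophil libraries (left) and the 3 CD115plusGMP libraries (right). The upper 10 genes are high in Neutrophil, most of all in replicate 3; Mpo to Irf8 have 0 to 3 reads in Neutrophil; Prss57 and Srgn are the azurophilic exceptions.

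Of 25 genes listed for mature neutrophils, 23 were called higher, all stably, and none lower; 19 of these 25 passed the filter only through Neutrophil. Cxcr2, the receptor for neutrophil-attracting chemokines, had 188, 164 and 667 reads in Neutrophil and 3, 1 and 1 in CD115plusGMP (7.68 ± 0.49, adjusted p = 2.4e-07). Mxd1, a partner of MAX that opposes MYC, had 124, 116 and 347 reads in Neutrophil and 1, 1 and 0 in CD115plusGMP, a ratio of 420 (116 to 3480; adjusted p = 1.2e-06). Cd300lf, an inhibitory receptor of myeloid cells, had 87, 62 and 174 reads in Neutrophil and 1, 0 and 0 in CD115plusGMP, a ratio of 463 (82.5 to 18300; at least 89.3 without CD115plusGMP replicate 1; adjusted p = 3.8e-06). MYC's own gene moved the other way: Myc had 0 reads in each Neutrophil library and 11, 5 and 4 in CD115plusGMP (at least 4.65-fold lower; at least 2.37-fold without Neutrophil replicate 3).

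S100 proteins bind calcium, and the S100a8 and S100a9 products form calprotectin, a major cytosolic protein of neutrophils. Of 9 in the table, 4 were called higher and 1 lower. S100a9 had 2384, 1691 and 14213 reads in Neutrophil and 19, 7 and 4 in CD115plusGMP (9.36 ± 0.52, adjusted p = 7.4e-08; 8.73 without Neutrophil replicate 3). S100a8 had 459, 360 and 2164 reads in Neutrophil and 20, 1 and 8 in CD115plusGMP (7.36 ± 0.70, adjusted p = 5e-06; 8.02 without CD115plusGMP replicate 1 and 6.40 without CD115plusGMP replicate 2). S100a10, the annexin A2 partner, went the other way with 0, 0 and 4 reads in Neutrophil and 15, 5 and 15 in CD115plusGMP (−2.83 ± 0.88, adjusted p = 0.015). That call was lost without CD115plusGMP replicate 1 (adjusted p = 0.051) or replicate 3 (0.066), and the difference was −3.57 without Neutrophil replicate 3.

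Neutrophil replicate 3 carried more of the granule genes than the other Neutrophil libraries. The summed CPM of the specific granule list was 6290, 4940 and 13200 in Neutrophil replicates 1 to 3 and 365, 186 and 173 in CD115plusGMP. The mitosis list sum was lowest in Neutrophil replicate 3 instead, at 2610, 3310 and 1550 in replicates 1 to 3. Most of that sum came from Mki67, an exception in its list described below. It held 732, 883 and 769 of the 845, 1080 and 967 mitosis list reads, so the sum says little of the other mitosis genes. The excess in Neutrophil replicate 3 was not particular to granule genes. In the same Neutrophil libraries the actin and motility list summed to 11200, 10300 and 20200, and the ER folding and secretion list to 473, 343 and 868. By contrast Foxd4 had 754, 1005 and 936 reads and Nod2 562, 937 and 772 in the same Neutrophil libraries, with no excess in replicate 3. Without Neutrophil replicate 3, 2005 genes were called higher and 996 lower.

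**Figure D3:**
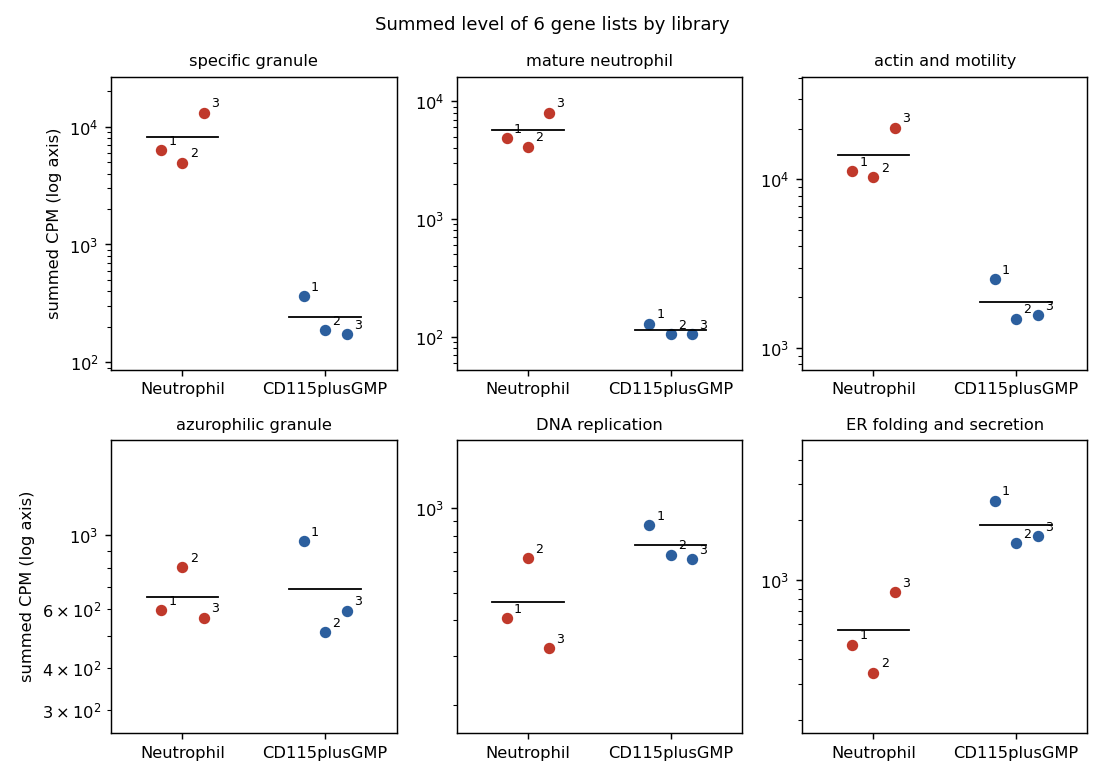
Summed CPM (log axis) of 6 gene lists in each library, numbered by replicate, with bars at the group means, Neutrophil left and CD115plusGMP right in each panel. Specific granule, mature neutrophil and actin genes are higher in all Neutrophil libraries and highest in replicate 3; ER folding genes are lower in all of them, while the azurophilic and DNA replication sums of the groups overlap.

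Innate receptors and their signalling chains were higher in Neutrophil as well. Of 26 pattern recognition and inflammasome genes in the table, 12 were called higher, 11 stably, and none lower. Of these 26, 7 passed the filter only through their higher group. Nod2, a cytosolic sensor of bacterial cell wall fragments, had 6, 0 and 0 reads in CD115plusGMP beside the Neutrophil reads given above (9.87 ± 0.75, adjusted p = 8.9e-07; 10.92 without CD115plusGMP replicate 1). Il1b, interleukin-1 beta, had 86, 81 and 230 reads in Neutrophil and 0, 1 and 0 in CD115plusGMP, a ratio of 569 (101 to 22500; 329 without CD115plusGMP replicate 1 and at least 134 without CD115plusGMP replicate 2). Its natural antagonist Il1rn had 26, 14 and 49 reads in Neutrophil and 0 in CD115plusGMP (at least 42.5-fold higher; at least 24.6-fold without CD115plusGMP replicate 1). Reads at the loci of the agonist and of the antagonist were thus both present in Neutrophil and nearly absent from the progenitors. Protein was not measured.

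Chemoattractant receptors were called higher in 5 of 18 and lower in 1, and 4 of the 18 passed the filter only through their higher group. C5ar1, the receptor for complement fragment C5a, had 32, 24 and 118 reads in Neutrophil and 0 in CD115plusGMP (at least 83.1-fold higher; at least 52.5-fold without Neutrophil replicate 3 and 48.1-fold without CD115plusGMP replicate 1). Fpr2, a formyl peptide receptor, had 14, 20 and 51 reads in Neutrophil and 0 in CD115plusGMP (at least 40.6-fold higher; at least 23.5-fold without CD115plusGMP replicate 1). Ccr2, the receptor by which monocytes leave the marrow, was the one that fell, with 0, 0 and 5 reads in Neutrophil and 71, 40 and 35 in CD115plusGMP (−4.83 ± 0.85, adjusted p = 0.00048; −5.67 without Neutrophil replicate 3).

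All 6 NADPH oxidase genes were called higher, 5 of them stably, with a median log2 difference of 3.67. Ncf1, the p47 subunit, had 114, 114 and 432 reads in Neutrophil and 27, 16 and 17 in CD115plusGMP (3.73 ± 0.37, adjusted p = 7.9e-06), with Gtf2ird2 as opposite-strand partner. Cybb, the catalytic subunit, had 64, 49 and 309 reads in Neutrophil and 41, 24 and 28 in CD115plusGMP. Its shift was smaller than that of Ncf1 (2.27 ± 0.44, adjusted p = 0.00094), and it was the member whose call did not hold under every scaling.

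Tyrosine kinases, phosphatases and immediate early genes followed. Of 23 myeloid kinase and phosphatase genes, 17 were called higher, 10 stably, and none lower. Ptprc, the leukocyte phosphatase CD45, had 319, 193 and 651 reads in Neutrophil and 37, 16 and 6 in CD115plusGMP (5.0 ± 0.47, adjusted p = 5e-06), and Fgr, a Src-family kinase, had 51, 34 and 189 in Neutrophil against 3, 2 and 2 in CD115plusGMP (5.20 ± 0.60, adjusted p = 2.1e-05). Of 22 immediate early and AP-1 genes, 12 were called higher, all stably, and none lower, with 6 kept by the filter only through their higher group. Dusp1, a phosphatase of MAP kinases, had 14, 39 and 64 reads in Neutrophil and 0 in CD115plusGMP (at least 55.9-fold higher; at least 32.3-fold without CD115plusGMP replicate 1). Fos had 10, 8 and 54 reads in Neutrophil and 0 in CD115plusGMP (at least 34.4-fold higher; at least 16.9-fold without Neutrophil replicate 3 and 19.9-fold without CD115plusGMP replicate 1). Mcl1, the survival factor on which neutrophils depend, had 201, 191 and 421 reads in Neutrophil and 45, 8 and 14 in CD115plusGMP (4.40 ± 0.44, adjusted p = 8e-06). Of 22 cytokine receptor genes, 12 were called higher, 9 stably, and none lower, with 5 kept by the filter only through their higher group.

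Of 30 actin and motility genes, 28 were called higher, but only 19 stably, and none lower; the median log2 difference was 2.63. Vasp, which extends actin filaments, had 152, 106 and 580 reads in Neutrophil and 21, 8 and 7 in CD115plusGMP (4.82 ± 0.46, adjusted p = 4.9e-06). Lcp1, the leukocyte actin-bundling plastin, had 298, 258 and 1225 reads in Neutrophil and 84, 30 and 25 in CD115plusGMP (4.06 ± 0.41, adjusted p = 8.5e-06), with the predicted genes Gm15628 and Gm15629 opposite it. The filament-severing gelsolin gene Gsn had 25, 20 and 115 reads in Neutrophil and 4, 0 and 2 in CD115plusGMP (5.03 ± 0.86, adjusted p = 0.0004; 4.20 without CD115plusGMP replicate 2).

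Adhesion genes were called higher in 8 of 17, all stably, and lower in 1. Itgam, the integrin chain CD11b, had 191, 149 and 437 reads in Neutrophil and 11, 2 and 5 in CD115plusGMP (5.99 ± 0.48, adjusted p = 1.4e-06). Itga4, an integrin chain that holds progenitors in the marrow, had 34, 12 and 35 reads in Neutrophil and 102, 74 and 67 in CD115plusGMP (−1.12 ± 0.43, adjusted p = 0.04), with Cerkl opposite it. That call was lost when any library but Neutrophil replicate 1 was left out (adjusted p = 0.075 to 0.11).

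Several smaller lists had genes called higher, in places at shares near the 14.5% (8.27% stably) over all genes of the table. Fc receptor genes were called higher in 4 of 10, 1 stably, lipid mediator genes in 6 of 15, 5 stably, interferon-stimulated genes in 5 of 21, 4 stably, antiprotease genes in 4 of 13, 2 stably, and BCL2 family genes in 3 of 12, 2 stably, with none lower in any of them. Alox5ap, the helper protein of leukotriene synthesis, had 15, 21 and 84 reads in Neutrophil and 14, 4 and 3 in CD115plusGMP (2.88 ± 0.65, adjusted p = 0.0025), with Gm19719 opposite it. Of 16 MHC class II and dendritic cell genes, 2 were called higher and 1 lower (2 lower without Neutrophil replicate 3). Of 12 nuclear lamina and envelope genes 3 were called higher and 2 lower, but 0 or 1 lower without any library other than Neutrophil replicate 1. The BCL2 list had 2 genes lower without Neutrophil replicate 2.

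Genes of glycolysis and glycogen use were called higher in 12 of 24, 7 stably, and lower in 2. The glucose transporter gene Slc2a3 had 55, 67 and 122 reads in Neutrophil and 1, 1 and 0 in CD115plusGMP, a ratio of 175 (47.9 to 1450; adjusted p = 1e-05). The genes called lower were phosphofructokinase genes. Pfkp, the platelet-type enzyme, had 0 reads in Neutrophil and 118, 108 and 83 in CD115plusGMP (at least 71.9-fold lower; at least 36.7-fold without Neutrophil replicate 3), with Pitrm1 as opposite-strand partner. Pfkm, the muscle-type enzyme, had 0, 4 and 0 reads in Neutrophil and 23, 20 and 15 in CD115plusGMP (−3.66 ± 1.03, adjusted p = 0.0092; −4.87 without Neutrophil replicate 2 and −2.82 without Neutrophil replicate 3).

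Of 13 granulocyte transcription factor genes, 7 were called higher, all stably, and none lower. Cebpe, the C/EBP factor of late granulocyte development, had 24, 19 and 119 reads in Neutrophil and 8, 2 and 2 in CD115plusGMP (3.92 ± 0.69, adjusted p = 0.00045). Spi1, which encodes PU.1, had 41, 29 and 171 reads in Neutrophil and 26, 3 and 13 in CD115plusGMP (3.03 ± 0.65, adjusted p = 0.0018; 2.31 without CD115plusGMP replicate 2). Cebpd, another C/EBP factor, had 185, 274 and 321 reads in Neutrophil and 64, 48 and 52 in CD115plusGMP (2.78 ± 0.31, adjusted p = 1.7e-05), with Spidr opposite it. Cebpa, the C/EBP factor that starts the granulocyte programme, did not pass the test, with 19, 5 and 31 reads in Neutrophil and 36, 17 and 16 in CD115plusGMP (0.02 ± 0.59, adjusted p = 0.98); Gm45091 lies opposite it. Irf8, which directs progenitors to monocytes and dendritic cells, had 0 reads in each Neutrophil library and 55, 15 and 22 in CD115plusGMP, at least 21.4-fold lower (at least 10.9-fold without Neutrophil replicate 3; adjusted p = 0.00017). Zeb2, the other gene called among 11 of monocyte fate, was lower as well, with 107, 150 and 256 reads in Neutrophil and 978, 699 and 544 in CD115plusGMP (−1.60 ± 0.27, adjusted p = 0.00036), with Zeb2os opposite it.

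The monocyte and macrophage list was mixed, with 4 of 25 genes called higher, 1 stably, and 5 lower. Without Neutrophil replicate 2, 7 were called higher. F13a1, a coagulation factor subunit made by monocytes, had 8, 0 and 5 reads in Neutrophil and 178, 80 and 62 in CD115plusGMP (−4.51 ± 0.86, adjusted p = 0.0008; −5.46 without Neutrophil replicate 1 and −3.40 without Neutrophil replicate 2), with Gm30489 opposite it. Cd163, the haptoglobin-haemoglobin receptor of macrophages, had 12, 0 and 13 reads in Neutrophil and 296, 200 and 165 in CD115plusGMP (−5.04 ± 0.91, adjusted p = 0.00055; −5.96 without Neutrophil replicate 1 and −3.63 without Neutrophil replicate 2). Mpeg1, perforin-2, was the stable increase, with 240, 219 and 531 reads in Neutrophil and 184, 74 and 76 in CD115plusGMP (2.15 ± 0.31, adjusted p = 0.0001). Among 24 stem and progenitor genes, 4 were called lower and 3 higher, 1 of them stably. Here too the counts of higher were near or below the table's share. Npm1, nucleophosmin, had 0, 4 and 0 reads in Neutrophil and 74, 26 and 44 in CD115plusGMP (−4.85 ± 1.02, adjusted p = 0.0015; −6.06 without Neutrophil replicate 2 and −4.01 without Neutrophil replicate 3).

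Genes of DNA replication were lower in Neutrophil. Of 32 in the table, 15 were called lower and 1 higher (2 without CD115plusGMP replicate 1), and the median log2 difference was −2.69; 11 of the 32 passed the filter only through CD115plusGMP. Rrm1, the large subunit of ribonucleotide reductase, had 0 reads in each Neutrophil library and 51, 41 and 22 in CD115plusGMP (at least 26.5-fold lower; at least 13.5-fold without Neutrophil replicate 3; adjusted p = 8.4e-05). Subunits of the replicative helicase had the same pattern. Mcm3 had 0 reads in Neutrophil and 29, 17 and 16 in CD115plusGMP (at least 14.4-fold lower), Mcm5 0 in Neutrophil against 38, 13 and 10 in CD115plusGMP (at least 14.2-fold), and Mcm2 0 in Neutrophil against 21, 14 and 14 in CD115plusGMP (at least 11.4-fold). Their limits without Neutrophil replicate 3 were 7.35-fold, 7.24-fold and 5.81-fold, and that of Mcm5 was 9.25-fold without CD115plusGMP replicate 1. Mcm4, a further helicase subunit, had 0, 0 and 14 reads in Neutrophil and 27, 5 and 21 in CD115plusGMP and was not called. The exception, Gins2, had 50, 66 and 51 reads in Neutrophil and 27, 15 and 16 in CD115plusGMP (2.11 ± 0.45, adjusted p = 0.0016), was not called under every scaling, and shares 2758 exon bases with Gse1 on the other strand.

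The promoters of Mcm3 and Mcm5 are shown because Mcm2, Mcm3, Mcm5, Mcm6 and Mcm7 of the helicase were called lower and E2F factors are known to control them. They run from 250 bases before to 50 after the start of transcription, from RefSeq (GRCm38.p6), at chr1:20820263-20820562 on the − strand for Mcm3 and chr8:75109259-75109558 on the + strand for Mcm5. Capitals mark matches to the E2F motif TTTNNCGC on either strand; the 2 matches of Mcm5 overlap.
Mcm3: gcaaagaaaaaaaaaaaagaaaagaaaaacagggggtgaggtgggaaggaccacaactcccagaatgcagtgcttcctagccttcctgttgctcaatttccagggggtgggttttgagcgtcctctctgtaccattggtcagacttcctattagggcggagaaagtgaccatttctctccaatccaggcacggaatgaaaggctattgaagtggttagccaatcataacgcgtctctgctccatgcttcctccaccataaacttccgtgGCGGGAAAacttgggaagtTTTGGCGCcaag
Mcm5: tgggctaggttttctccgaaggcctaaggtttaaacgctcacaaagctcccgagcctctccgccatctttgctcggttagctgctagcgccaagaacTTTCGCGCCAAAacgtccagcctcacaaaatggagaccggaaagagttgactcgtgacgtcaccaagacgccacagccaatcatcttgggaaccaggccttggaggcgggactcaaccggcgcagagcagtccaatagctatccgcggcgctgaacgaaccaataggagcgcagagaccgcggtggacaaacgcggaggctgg
The Mcm5 matches start 153 and 149 bases before the start of transcription, and the Mcm3 matches 19 and 38 bases after it. Rrm1 held no match in its window. The motif was found in 11.4% of the 696 promoters of genes called lower, in 5.72% of the 1591 of genes called higher, in 9.14% of the 1981 of genes not called, and in 5.17% of all 32851 promoters. Median GC content was 59.5% in promoters of genes called lower and 60.7% in those called higher, against 52.7% in all.

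Mitosis genes were called lower in 13 of 32 and higher in 1. The filter kept 8 of the 32 only through their higher group, and 8 have an opposite-strand partner. Top2a, the topoisomerase that untangles chromosomes, had 0, 0 and 1 reads in Neutrophil and 80, 23 and 39 in CD115plusGMP, a ratio of 99.1 (17.5 to 3940; at least 16.8 without Neutrophil replicate 3; adjusted p = 0.00013). Nusap1, a spindle protein gene with the partner Oip5, had 0, 2 and 1 reads in Neutrophil and 77, 42 and 49 in CD115plusGMP, a ratio of 39.1 (13.1 to 191; 87.2 without Neutrophil replicate 2). The spindle assembly factor Tpx2 had 0 reads in Neutrophil and 25, 8 and 16 in CD115plusGMP (at least 11.4-fold lower; at least 5.81-fold without Neutrophil replicate 3). Mki67, whose protein Ki-67 marks dividing cells, was the exception, with 732, 883 and 769 reads in Neutrophil and 144, 46 and 67 in CD115plusGMP (3.93 ± 0.37, adjusted p = 4.6e-06). All Neutrophil libraries were above all CD115plusGMP libraries at this locus, it has no annotated opposite-strand partner, and the sources of its reads were not tested. Of 16 G1 cyclin and CDK inhibitor genes, 5 were called higher, 3 stably, and none lower (1 lower without Neutrophil replicate 3). Btg2, which restrains division, had 43, 29 and 108 reads in Neutrophil and 1, 2 and 6 in CD115plusGMP (4.73 ± 0.74, adjusted p = 0.0002; 4.07 and 5.40 without CD115plusGMP replicates 1 and 3). Cdkn1b, which encodes p27, had 36, 12 and 67 reads in Neutrophil and 8, 2 and 5 in CD115plusGMP (3.25 ± 0.68, adjusted p = 0.0015).

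Part of the genes for making and folding proteins were lower too. Of 26 ribosome biogenesis and nucleolar genes, 9 were called lower and 3 higher, 1 stably. Nolc1, a nucleolar chaperone, had 0, 0 and 6 reads in Neutrophil and 43, 23 and 17 in CD115plusGMP (−3.91 ± 0.91, adjusted p = 0.0031; −4.83 without Neutrophil replicate 3). Of 17 chaperonin and cytosolic chaperone genes, 8 were called lower and 1 higher. Hsp90aa1, the inducible HSP90, had 0, 0 and 13 reads in Neutrophil and 114, 60 and 55 in CD115plusGMP (−5.03 ± 0.95, adjusted p = 0.00076; −4.40, −4.39 and −6.30 without Neutrophil replicates 1, 2 and 3). Hspd1, the mitochondrial chaperonin with the partner Hspe1, had 0 reads in Neutrophil and 18, 11 and 11 in CD115plusGMP (at least 9.31-fold lower; at least 4.74-fold without Neutrophil replicate 3).

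Endoplasmic reticulum folding and secretion genes were called lower in 11 of 22 and in none higher; without CD115plusGMP replicate 1, 6 were called lower. Calr, the calcium-binding chaperone calreticulin, had 28, 14 and 102 reads in Neutrophil and 534, 198 and 254 in CD115plusGMP (−2.54 ± 0.45, adjusted p = 0.00048). Rpn2, a subunit of the enzyme that attaches sugars to new proteins, had 0 reads in Neutrophil and 52, 24 and 15 in CD115plusGMP (at least 21.2-fold lower; at least 10.8-fold without Neutrophil replicate 3), with Mroh8 opposite it. Of 33 nuclear oxidative phosphorylation genes, 3, among them Ndufa4 and Atp5o (opposite Gm15976 and D430001F17Rik), were called lower and none higher, but 1 without any one of the CD115plusGMP libraries or without Neutrophil replicate 1, and 1 higher without Neutrophil replicate 3. Of 47 mitochondrial ribosomal protein genes, Mrpl19 (opposite Gcfc2) and Mrpl27 (opposite Eme1) were called lower and none higher. Of all genes with a symbol, 6.51% were called lower, so the counts of both lists were near or below that share. In these lists 18 and 8 genes passed the filter.

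**Figure D4:**
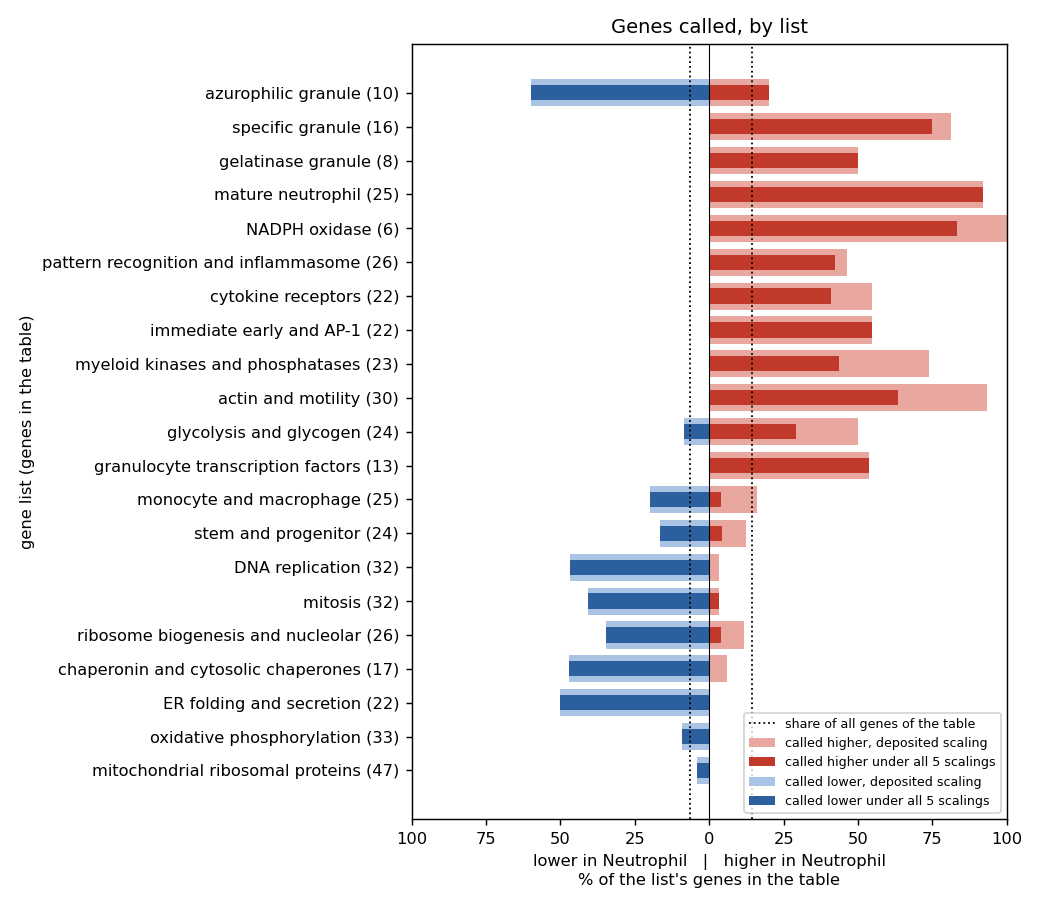
Share of each list's genes in the table that were called higher (right) or lower (left) in Neutrophil, for 21 lists; pale bars use the deposited scaling and dark bars count genes called under all 5 scalings, which calls of lower could hardly fail. Dotted lines mark 14.5% higher and 6.51% lower over all genes of the table. Specific and gelatinase granule, oxidase and actin lists lie to the right. Azurophilic granule, DNA replication, mitosis, chaperone and ER lists lie mainly to the left.

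Because reads may come from the opposite strand, the rows of genes annotated opposite to list genes were read as well. Where both rows of such a pair passed the filter, 63 pairings of a list gene with an opposite gene could be drawn (Tcp1 and Mrpl18, both list genes, appear once each way), and in 28 both were called. In 25 of these the rows moved the same way. Pla2g7, a phospholipase that degrades platelet-activating factor, had 53, 73 and 149 reads in Neutrophil and 1, 0 and 0 in CD115plusGMP, a ratio of 394 (70.1 to 15600; at least 76 without CD115plusGMP replicate 1). The row opposite it, 1700071M16Rik, rose too, with 2802, 4112 and 4121 reads in Neutrophil and 47, 37 and 30 in CD115plusGMP (7.15 ± 0.30, adjusted p = 9.6e-09). Gm10684, opposite the adhesion molecule gene Jaml, had 3320, 4763 and 4713 reads in Neutrophil and 106, 80 and 72 in CD115plusGMP (6.19 ± 0.29, adjusted p = 2.3e-08). E230016M11Rik, opposite the stress gene Gadd45a, had 1462, 2135 and 1719 reads in Neutrophil and 59, 51 and 32 in CD115plusGMP (5.81 ± 0.34, adjusted p = 1.2e-07). Jaml itself had 68, 80 and 132 reads in Neutrophil and 5, 1 and 2 in CD115plusGMP, and Gadd45a 21, 37 and 138 in Neutrophil against 5, 5 and 3 in CD115plusGMP, so these opposite rows held many more reads than the genes they lie across from.

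On the falling side, Plppr3, opposite Prtn3, had 78, 79 and 111 reads in Neutrophil and 1959, 1470 and 1180 in CD115plusGMP (−3.52 ± 0.27, adjusted p = 9.5e-07). Plppr3 also overlaps Ptbp1 on the other strand, whose row had 1, 0 and 0 reads in Neutrophil and 12, 11 and 7 in CD115plusGMP. Exosc9, opposite the mitotic cyclin gene Ccna2, had 15, 7 and 6 reads in Neutrophil and 1130, 780 and 731 in CD115plusGMP (−6.00 ± 0.47, adjusted p = 1.1e-06); the Ccna2 row itself was lower by less (−3.02 ± 0.34, adjusted p = 1.9e-05). Gm16897, opposite Cd34, had 13, 1 and 14 reads in Neutrophil and 749, 582 and 456 in CD115plusGMP (−5.89 ± 0.63, adjusted p = 1.3e-05; −6.56 without Neutrophil replicate 1 and −4.97 without Neutrophil replicate 2), while the row of Cd34 itself did not pass. Gm16897 also overlaps A330023F24Rik on the other strand, whose row moved the other way (3.40 ± 0.56, adjusted p = 0.00029).

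The pairs whose rows moved apart were 3, and each holds a gene that went against its list. Prss57 rose and Fstl3 opposite it fell, with 23, 36 and 37 reads in Neutrophil and 472, 350 and 301 in CD115plusGMP (−2.97 ± 0.32, adjusted p = 1.5e-05). Gins2 rose and Gse1 opposite it fell, with 23, 14 and 37 reads in Neutrophil and 324, 228 and 200 in CD115plusGMP (−2.83 ± 0.33, adjusted p = 2.3e-05). The nucleolar gene Bop1, with 76, 96 and 67 reads in Neutrophil and 32, 18 and 17 in CD115plusGMP, rose (2.42 ± 0.44, adjusted p = 0.00057), and Mroh1 opposite it had 5, 0 and 20 reads in Neutrophil and 61, 43 and 35 in CD115plusGMP (−3.0 ± 0.94, adjusted p = 0.017). The Mroh1 call was lost without CD115plusGMP replicate 1 (adjusted p = 0.058), and its difference was −1.69 and −3.90 without Neutrophil replicates 2 and 3. Over all 634 opposite-strand pairs of genes compared, both were called in 226, in the same direction in 192 and in opposite directions in 34. From which strand the reads came was not tested.

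**Figure D5:**
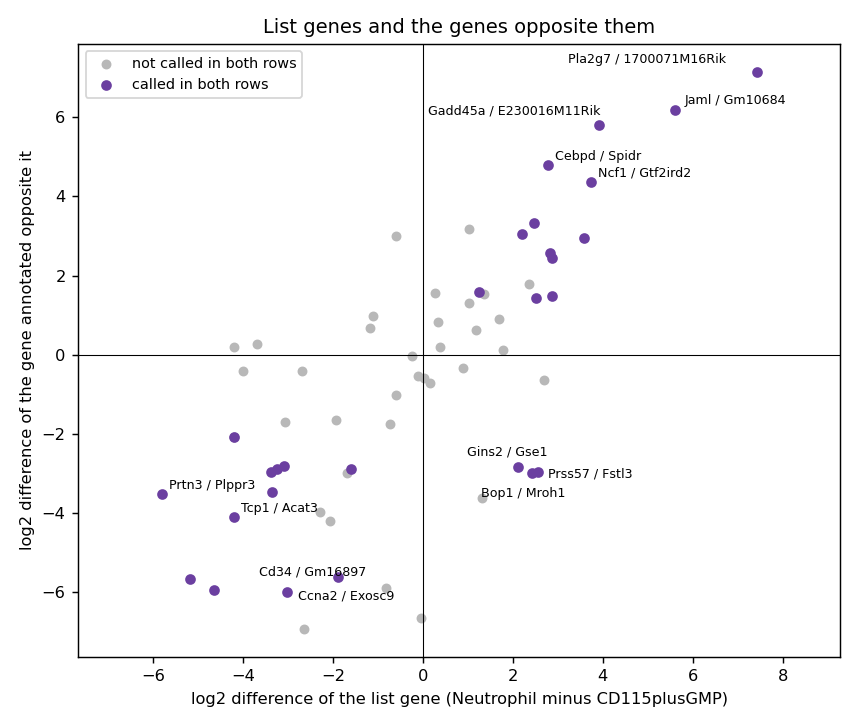
Log2 difference of the gene annotated opposite a list gene (vertical) against that of the list gene itself (horizontal), both Neutrophil minus CD115plusGMP, for 63 pairings. Of the 28 pairings with both rows called, 25 lie in the upper right or lower left; Prss57, Gins2 and Bop1 lie at the lower right.

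Among genes without an opposite-strand partner, the largest increases outside the lists under the naming rule included a transcription factor, an iron exporter and a metalloprotease. Foxd4, a forkhead factor gene at chr19:24899236-24901197 on the − strand, had 0, 1 and 1 reads in CD115plusGMP beside the Neutrophil reads given above, a ratio of 1930 (534 to 15900; 1120 without CD115plusGMP replicate 1; adjusted p = 9.9e-08). Rufy4, linked to autophagy in dendritic cells, had 129, 183 and 251 reads in Neutrophil and 0 in CD115plusGMP (at least 269-fold higher; at least 156-fold without CD115plusGMP replicate 1). Chil1, a chitinase-like protein gene known in neutrophils, had 139, 130 and 335 reads in Neutrophil and 0, 0 and 1 in CD115plusGMP, a ratio of 865 (155 to 34200; 501 without CD115plusGMP replicate 1 and at least 205 without CD115plusGMP replicate 3). Slc40a1, the iron exporter ferroportin, had 105, 86 and 116 reads in Neutrophil and 0 in CD115plusGMP (at least 147-fold higher; at least 84.9-fold without CD115plusGMP replicate 1). Gelatinase A, Mmp2, had 178, 242 and 212 reads in Neutrophil and 1, 0 and 1 in CD115plusGMP, a ratio of 453 (125 to 3750). On the other strand, Gm45472 lies 232 bases from Mmp2, Tns1 1091 from Rufy4 and Gm18303 1269 from Slc40a1. Slc22a20, Hecw2, Cyp3a13 and Amer2 complete the highest 14 with the genes already described; their Neutrophil reads ranged from 86 to 349 per library and no CD115plusGMP library had more than 1.

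Under the same rule the largest decreases without a partner included Aebp1, with 0 reads in Neutrophil and 100, 97 and 66 in CD115plusGMP (at least 61.2-fold lower; at least 31.2-fold without Neutrophil replicate 3). The DNA polymerase delta gene Pold2 lies 91 bases from it on the other strand. Rpain, the importer of replication protein A, had 0, 2 and 9 reads in Neutrophil and 395, 358 and 345 in CD115plusGMP (−6.76 ± 0.69, adjusted p = 8.9e-06; −5.82 and −7.47 without Neutrophil replicates 1 and 3), and C1qbp lies 2 bases from it on the other strand. Igfbp4, which binds insulin-like growth factors, had 0 reads in Neutrophil and 76, 33 and 38 in CD115plusGMP (at least 34.2-fold lower; at least 17.4-fold without Neutrophil replicate 3). Pa2g4, Atic, Ybx3, Fgfbp3 and Dis3l had 0 reads in every Neutrophil library and 92 to 122 over the CD115plusGMP libraries. Stox2 had 17, 2 and 0 reads in Neutrophil and 245, 237 and 162 in CD115plusGMP (−5.67 ± 1.09, adjusted p = 0.00086; −7.16 and −4.12 without Neutrophil replicates 1 and 3).

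With a partner, the largest increases under the naming rule included Spatc1, Syp, Abi3 and Pilrb2 (opposite Gm43495). Spatc1, opposite the long non-coding RNA gene Mirt2, had 1364, 2112 and 1741 reads in Neutrophil and 1, 5 and 0 in CD115plusGMP (10.63 ± 0.70, adjusted p = 2.9e-07; 11.60 and 9.88 without CD115plusGMP replicates 2 and 3). Mirt2 itself rose, with 20, 24 and 24 reads in Neutrophil and 0 in CD115plusGMP. Abi3, opposite Zfp652, Phospho1 and Gngt2, had 12697, 19367 and 17180 reads in Neutrophil and 105, 61 and 69 in CD115plusGMP (8.29 ± 0.32, adjusted p = 6.5e-09). Syp, the synaptic vesicle protein synaptophysin, had 357, 641 and 550 reads in Neutrophil and 1, 1 and 0 in CD115plusGMP, with the predicted gene Gm14703 opposite it, a ratio of 1110 (306 to 9160). Under the naming rule, which passes over predicted genes and genes of low level, the largest decreases with a partner were at Slc24a5 (opposite Myef2), Pfkp, Mpo, Pmch (opposite Parpbp) and Slc5a2 (opposite BC017158). Slc5a2, a kidney glucose transporter gene, had 0, 1 and 14 reads in Neutrophil and 469, 391 and 327 in CD115plusGMP (−6.90 ± 0.76, adjusted p = 1.6e-05; −5.99 and −7.94 without Neutrophil replicates 1 and 3).

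Few markers of other marrow cells were called, apart from the monocyte genes described above. Among the 18 erythroid genes only Sptb, a spectrin gene, was called, and among the 10 megakaryocyte genes the platelet receptor genes Gp1ba and Itgb3, all higher in Neutrophil. Gp1ba had 103, 140 and 142 reads in Neutrophil and 19, 21 and 14 in CD115plusGMP (3.37 ± 0.39, adjusted p = 2.3e-05). The 9 B lymphoid and the 7 basophil and mast cell genes had 1 call each, and the 8 eosinophil, 5 T and NK cell and 5 stroma genes none. The T and NK cell list and the stroma list named 14 genes each, most of them absent from the table. The part of such cells in the other results was not tested. The haemoglobin genes Hba-a1 and Hbb-bs, Pf4, Cd3e and Col1a1 had 0 reads in all 6 libraries. Cd79a, a chain of the B cell receptor, was the B lymphoid gene called higher, with 14, 29 and 29 reads in Neutrophil and 3, 1 and 2 in CD115plusGMP (3.87 ± 0.73, adjusted p = 0.00076), while Vpreb1 was at 0. Siglecf, of eosinophils, had 0, 0 and 17 reads in Neutrophil and 1, 0 and 0 in CD115plusGMP, while Epx had 0 in Neutrophil and 1, 0 and 0 in CD115plusGMP. Hdc, which makes histamine in basophils and is also on the mature neutrophil list, had 47, 61 and 142 reads in Neutrophil and 5, 3 and 1 in CD115plusGMP (5.17 ± 0.58, adjusted p = 1.9e-05), while Mcpt8 was at 0 in every library.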

How the data were processed

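RNA libraries of sorted marrow cells were made with the NuGEN Universal Plus mRNA-Seq kit, per the labels' protocols. Values are log2 CPM in a single deposited table. FastQC 0.11.7, featureCounts 1.22.2 and edgeR 1.30.5 with GRCm38 (mm10) were used by the authors, per the submitters' processing notes. The sources used here name no aligner, strand setting or annotation. Each deposited log2 value is log2 of a whole number of reads plus 0.5, times a constant per library, so reads were recovered (100% whole within 0.001). Implied library sizes are 0.254 to 0.446 (Neutrophil) and 0.57 to 0.648 (CD115plusGMP) times the recovered totals, which shifts all genes up in Neutrophil.

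Rows with log2 CPM above 3 in at least 3 of 6 libraries (5875, of which 397 have no symbol) were fitted with limma 3.58.1 in R 4.3.3 (lmFit, eBayes with trend; 2-sided, Benjamini-Hochberg over all fitted rows). SE and n refer to 3 libraries per group. Each pair of libraries of a group differed by more than sampling noise. Intervals and floors cover counting error only, not the choice of scaling, and use the implied library sizes. Genes with 0 reads in the lower group are given against a floor of 3 reads over that group, and genes with 1 to 3 reads as a ratio of scaled reads with an exact 95% interval. The fit was also run on simulated data with known changes. Unlike these data, the simulation had no shift of scaling between the groups, and no result here rests on it. Strands, partners and coordinates came from GENCODE M21, promoters from RefSeq.

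Members, the 40 gene lists and the alternatives were chosen with earlier results of these data known. Named genes are the 14 largest changes in each direction without an opposite-strand partner and the 5 with one, called, non-overlapping, with mean log2 CPM of at least 5 and 30 reads in the higher group, predicted genes passed over, plus up to 6 genes per list, exceptions and cell markers. Genes opposite list genes, the exceptions Prss57, Gins2, Bop1 and Itga4, and A330023F24Rik, Gadd45a, Ms4a3, Lyz2, Mpeg1, Ccna2, Mirt2 and Cebpa were named after their values were seen. Alternatives: other filters, scalings, pseudocount, limma-voom, shared spread, replicate block, genes without partners, and each library left out. Some genes that the naming rule selects are not reported here.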

Additional observations from a re-analysis of the deposited data

Results flagged for a closer look

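Rows without a gene symbol were not used in the comparisons, and some of them held strong signal. Identifier 100504625 had 68866, 99898 and 103248 reads in Neutrophil and 203, 163 and 130 in CD115plusGMP, a log2 difference of 9.66 ± 0.33 (SE, n = 3 each; limma adjusted p = 2.7e-09). Identifier 100862357 had 17522, 26625 and 25637 reads in Neutrophil and 52, 36 and 25 in CD115plusGMP, a log2 difference of 9.86. Both were chosen after their values were seen, for a signal in rows outside the gene comparison that was far above the progenitor level. Of 397 rows without a symbol that were tested, 102 were higher and 156 lower in Neutrophil. Lower rows were thus the more frequent, while 37.8% of the genes with a symbol were higher and 17% lower. Identifier 100503054, also named after its values were seen, held 21%, 20.1% and 20.5% of all reads in Neutrophil. In CD115plusGMP it held 8.46%, 8.2% and 8.78% (log2 difference 2.09 ± 0.69, limma adjusted p = 0.022).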

How the results depend on the processing

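Of 2070 genes higher, 931 lower and 3001 in either direction, counts stayed within 1.5 times under most alternatives, and leaving out each library in turn gave 1735 to 2005, 724 to 996 and 2497 to 3001. A filter at log2 CPM above 5, which tests fewer genes, gave 1357, 494 and 1851. Using only genes without an opposite-strand partner, again fewer genes, gave 1356, 396 and 1752. Median centring gave 1252 higher and 1460 lower, and plain read totals 1271 higher. No filter gave 2257 and 939, limma-voom on recovered reads 2036 and 970, and spread shared over all 15 libraries 2322 and 1089. Replicate numbers did not pair the libraries (correlation of deviations −0.00577, 0.112 and −0.0172); with a replicate block the counts were 2048 and 976. The direction of Cebpa turned to −0.99 with median centring, −1.01 with quantile normalization, −0.55 with totals over genes with a symbol and −0.79 with plain totals, and lay between −0.33 and 0.59 with a library left out; that of Cd34 ranged from −1.56 to 0.24 with a library left out, turning without Neutrophil replicate 2. Neither was called; for these turns the cause was not tested. Shallow depth limits what can be called: the median gene had 77 reads over 6 libraries.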
